A study of Rattus norvegicus with 6 samples.

Results

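The genes described here encode the signalling chain that runs from the G protein Gq through phospholipase C to calcium release and protein kinase C (PKC). They were chosen as 10 Ensembl rat gene identifiers, each paired with its symbol in the list that defines the set: Gnaq (ENSRNOG00000014183), Plcb1 (ENSRNOG00000004810), Plcb3 (ENSRNOG00000021150), Itpr1 (ENSRNOG00000007104), Itpr2 (ENSRNOG00000001804), Prkca (ENSRNOG00000003491), Prkcb (ENSRNOG00000012061), Prkcd (ENSRNOG00000016346), Prkce (ENSRNOG00000015603) and Atp2a2 (ENSRNOG00000001285). All 10 were among the 18413 genes of the deposited counts. The deposited tables carry no symbols, so the pairing could not be checked against them.

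Messenger RNA was sequenced from GH3 cells, a line from a rat pituitary tumour that secretes growth hormone and prolactin, labelled wild type. The control group was 3 libraries of cells without the hormone (labelled NC), and the treated group was 3 libraries of cells exposed to thyrotropin-releasing hormone (TRH) at 100 nM. Both groups were of the same line and were grown in F10 medium with horse and fetal bovine serum. The sources used here do not state how long the treatment lasted. Whether the libraries within a group stem from separate cultures is not in the labels, so each p-value measures only the spread between these libraries, which may be technical.

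TRH binds a receptor on pituitary lactotrophs and thyrotrophs that couples to Gq. Active Gq switches on phospholipase C beta, which splits a membrane lipid into inositol trisphosphate (IP3) and diacylglycerol. IP3 opens receptors on the endoplasmic reticulum and releases calcium, diacylglycerol activates several PKC enzymes, and the SERCA pump returns calcium to the store. This chain acts within seconds to minutes on proteins that are already present, and the libraries measure the messenger RNAs that encode them.

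The most and the least abundant of the 10 genes were Atp2a2 and Plcb1, and the 250 bases upstream of their annotated starts are shown because these genes mark the limits of the set (RefSeq, assembly GRCr8, both on the + strand). Capitals mark each GC box, GGGCGG on either strand, a short motif bound by Sp1-family factors.
Atp2a2, chr12:39733269-39733518: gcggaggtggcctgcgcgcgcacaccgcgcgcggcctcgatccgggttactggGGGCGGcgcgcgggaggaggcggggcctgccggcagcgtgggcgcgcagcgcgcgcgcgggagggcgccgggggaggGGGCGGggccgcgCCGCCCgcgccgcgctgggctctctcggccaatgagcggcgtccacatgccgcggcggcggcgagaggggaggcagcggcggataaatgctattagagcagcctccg
Plcb1, chr3:142512515-142512764: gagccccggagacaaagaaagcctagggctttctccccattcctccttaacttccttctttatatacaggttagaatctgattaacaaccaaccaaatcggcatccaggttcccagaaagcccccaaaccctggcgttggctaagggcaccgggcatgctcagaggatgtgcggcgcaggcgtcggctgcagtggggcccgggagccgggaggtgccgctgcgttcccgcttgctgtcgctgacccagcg
The Atp2a2 window held 3 GC boxes and 45 CpG dinucleotides, more CpG than 99.6% of the 33469 rat promoter windows of this length. The Plcb1 window held 0 GC boxes and 15 CpG, more than 74.2% of windows. That of Itpr1, which had counts in every library, held 0 GC boxes and fewer CpG, at 9. A relation of window content to level was not tested. A GC box was present in 30.5% of all windows and in those of Gnaq, Plcb3, Itpr2, Prkca, Prkcd, Prkce and Atp2a2. Of the 10 genes, 9 had a window in the table, and Prkcb had none. TGACGTCA, the cyclic AMP response element, was found in 0 of the 9 windows and 1.59% of all windows. TGACTCA, the AP-1 site that phorbol esters act through, was likewise in 0 of 9 and in 4.05% of all. These counts describe letters in a window beside an annotated start, and the starts used in GH3 cells were not measured.

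Of the 10 genes, 9 had counts in every library, and Plcb1 did not. Levels are compared between genes as TPM, the authors' unit that divides counts by gene length and sets every library to an equal total, and are given as mean and SD over all 6 libraries. The order from the top was Atp2a2 (105 ± 13.7 TPM), Prkce (36.2 ± 10.97 TPM), Gnaq (19.3 ± 6.01 TPM), Plcb3 (13.96 ± 2.18 TPM), Prkcd (11.1 ± 2.18 TPM), Itpr1 (10.3 ± 2.58 TPM), Prkca (7.95 ± 2.62 TPM), Prkcb (5.28 ± 1.31 TPM) and Itpr2 (1.06 ± 0.477 TPM). Neighbours in this order kept it in 6 of 6 libraries, except Prkcd over Itpr1, which held in 3, and Itpr1 over Prkca, which held in 5. The gap between neighbours exceeded the sum of their SDs from Atp2a2 to Prkce, from Prkcb to Itpr2 and from Itpr2 to Plcb1 (0.00264 ± 0.00646 TPM), and in the other 6 pairs it did not. The mean TPM of Atp2a2 was above that of 91.0% of the genes in the table, that of Prkce above 77.5% and that of Itpr2 above 30.04%. The order rests on the deposited gene lengths, and the sources used here do not state how these were derived.

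**Figure D1:**
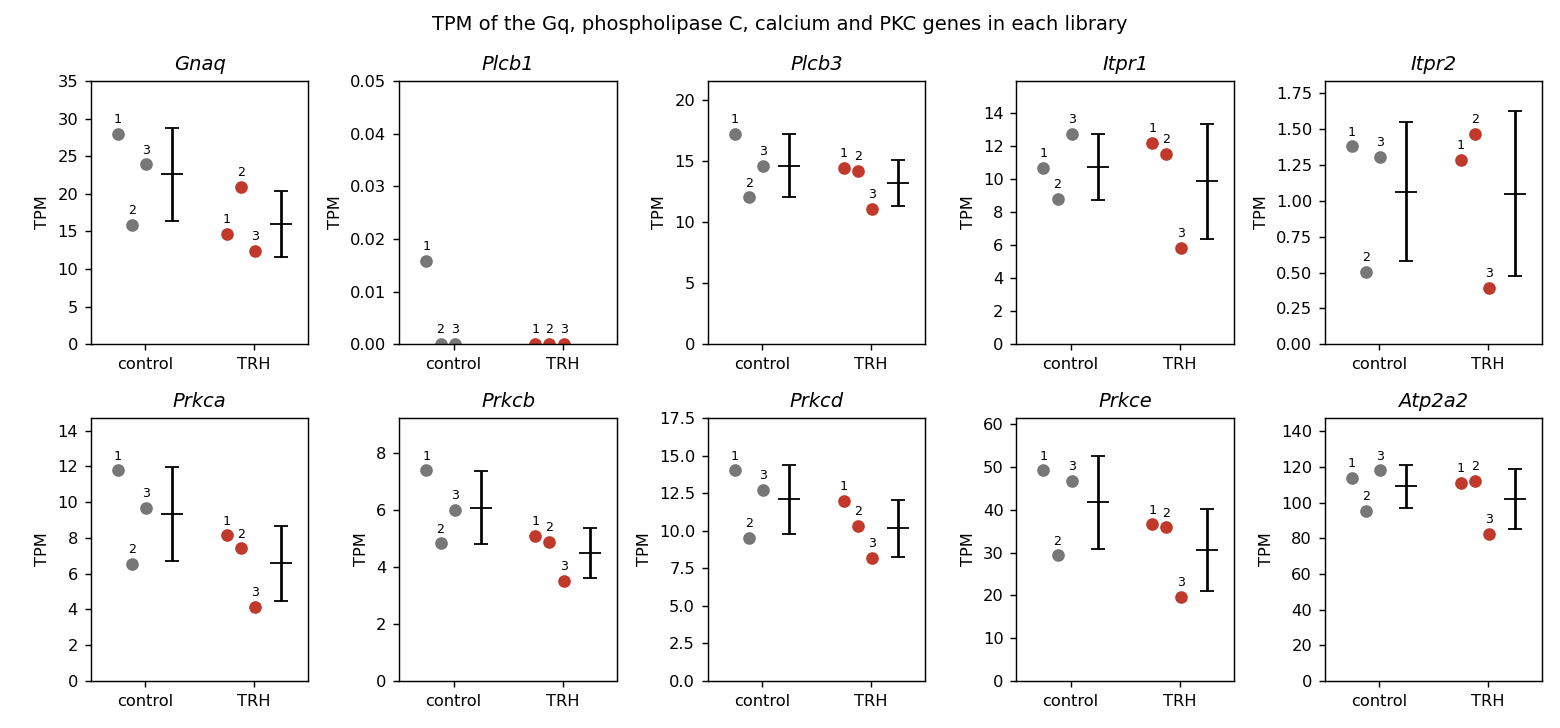
TPM of each of the 10 genes (vertical axes, linear from 0, scaled per gene) in the control and TRH libraries, with replicate numbers at the points and, except for Plcb1, the group mean ± SD as a bar beside them. Library 3 of the TRH group is the lowest point in 9 of the panels, and Plcb1 is at 0 in 5 of the libraries.

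Control and TRH libraries did not differ past the threshold in any tested gene of the chain. Plcb1 had too few reads to test. In bulk libraries, fewer cells that express a gene and less of its RNA per cell cannot be told apart. Of the 9 genes tested, 0 passed a Benjamini-Hochberg adjusted p of 0.05 in edgeR's quasi-likelihood test over all genes, where 0% of 14050 genes passed. DESeq2's Wald test also called 0 of the 9, against 0.835% of the genes it tested, and limma voom called 0. An unadjusted edgeR p under 0.05 was reached by 0 of the 9 and by 8.99% of all genes tested. In no gene of the 9 did the control and TRH values separate fully, while they did so in 10.2% of all genes with TRH lower and in 6.8% with TRH higher.

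The fitted values lay mostly below 0. Fold changes are TRH over control on the log2 scale, and 8 of the 9 were negative, with a median of -0.19 and a range from -0.45 to 0.03, beside a median of -0.0040 over all genes tested, of which 50.7% were negative. With offsets for gene length, 5 of the 9 were negative and the median was -0.13, beside 0.03 over all genes. Without control replicate 1 and TRH replicate 3, the highest and the lowest library by median over these same genes, 5 were negative. Control replicate 1 was not the highest library for Itpr1, Itpr2 and Atp2a2. Leaving out both also moved the log2 fold changes of the remaining 5 toward 0, to -0.16 for Gnaq, -0.0625 for Prkca, -0.13 for Prkcb, -0.0039 for Prkcd and -0.0717 for Prkce. An upward shift of the set was built into that choice of libraries, so no conclusion is drawn from it. Itpr2 likewise rose, from 0.03 to 0.61, away from 0.

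**Figure D2:**
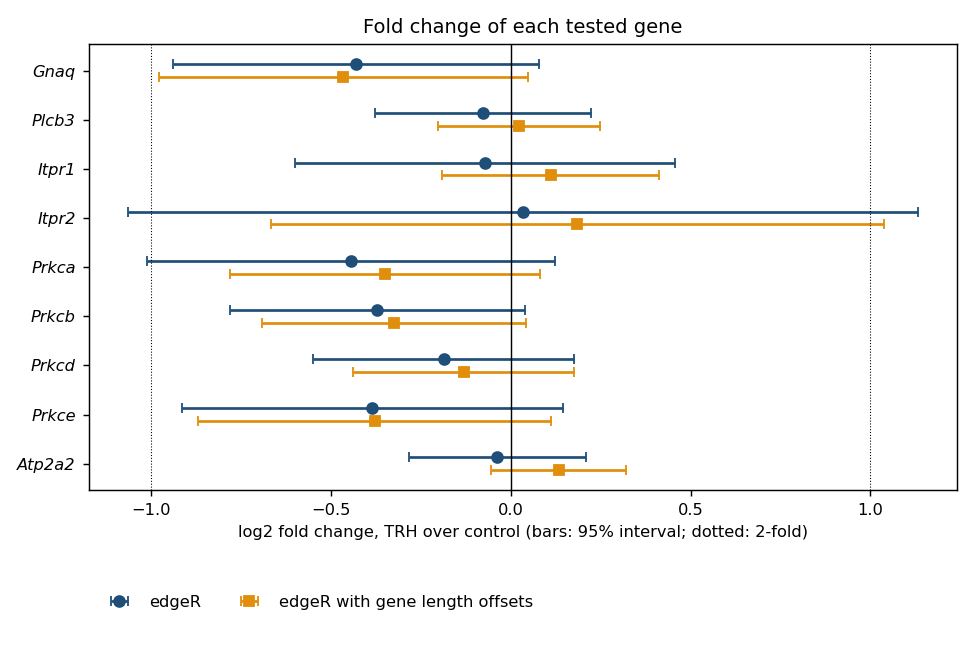
Fitted log2 fold change of the 9 tested genes, TRH over control (horizontal axis), with 95% intervals, from edgeR without (circles) and with (squares) offsets for gene length; dotted lines mark a 2-fold change. Every interval spans 0, and that of Itpr2 is the widest, from -1.06 to 1.13 without the offsets.

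Gnaq encodes the alpha subunit of Gq, the G protein to which the TRH receptor couples. Its level in CPM, counts scaled by TMM to an equal library total, was 22.2, 13.6 and 19.3 CPM in control replicates 1 to 3, and 12.2, 17.3 and 11.5 CPM in TRH replicates 1 to 3. Control replicate 2 lay among the TRH libraries, and TRH replicate 2 lay between the control values. The means were 18.4 ± 4.38 CPM and 13.7 ± 3.14 CPM (SD, n = 3 each). The fitted log2 fold change came to -0.43 (95% interval -0.94 to 0.08, SE 0.22, adjusted p = 0.585 in edgeR). Gnaq, with a gene length of 1348 bases, was the shortest of the set, and the value with length offsets was -0.47. Without control replicate 2 it was -0.61 (unadjusted p = 0.0163, edgeR adjusted p = 0.345), and without TRH replicate 2 it was -0.63 (unadjusted p = 0.0252, edgeR adjusted p = 0.768). The other libraries left out singly gave values nearer 0, from -0.37 without control replicate 3 to -0.27 without control replicate 1 (unadjusted p = 0.275, edgeR adjusted p = 0.977).

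Of the phospholipase C beta transcripts measured here, Plcb3 was present in every library and Plcb1 was at or near 0. Both enzymes are activated by Gq, and Plcb1 is best known from brain. Plcb1 had 2 counts in control replicate 1 and 0 in each of the other 5 libraries, where a count of 0 allows a level of up to 0.0575 to 0.0666 CPM, depending on the library's depth. Plcb3 had 9112 counts over the 6 libraries. Per base of gene length this was 5909 times the value for Plcb1, with a 95% exact Poisson interval from 1636 to 48791 that covers counting error in Plcb1 only. No fold change between the groups is given for Plcb1, since both groups were at or under 3 counts per library.

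Plcb3 was among the steadiest genes of the set. It stood at 38.6, 29.1 and 33.3 CPM in control replicates 1 to 3 and at 33.7, 33.0 and 28.9 CPM in TRH replicates 1 to 3. The lowest values of the groups were nearly equal, and the highest belonged to control replicate 1. Its log2 fold change was small, at -0.08 (95% interval -0.38 to 0.22, SE 0.13, adjusted p = 0.844 in edgeR), so the interval lay within 1.5-fold in either direction. It was 0.02 with length offsets and 0.03 without control replicate 1.

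Itpr1 and Itpr2 encode IP3 receptors, the calcium release channels of the endoplasmic reticulum. Itpr1 had 62.2, 55.6 and 75.8 CPM in control replicates 1 to 3, and 74.5, 69.8 and 39.9 CPM in TRH replicates 1 to 3. TRH replicate 3 fell below every other library, and the other TRH libraries lay within the control range. For Itpr1 the log2 fold change was -0.07 (95% interval -0.60 to 0.46, SE 0.23, adjusted p = 0.926 in edgeR), and it was 0.16 without TRH replicate 3, 0.08 without control replicate 3 and 0.11 with length offsets. With 9927 bases, Itpr1 was the longest gene of the set.

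Itpr2 split the libraries across the groups. It had 5.02, 1.99 and 4.83 CPM in control replicates 1 to 3 and 4.90, 5.55 and 1.66 CPM in TRH replicates 1 to 3, from 74 to 254 counts. Control replicate 2 and TRH replicate 3 were low, and the remaining 4 libraries, from both groups, lay close together. A log2 fold change of 0.03 was fitted (95% interval -1.06 to 1.13, SE 0.48, adjusted p = 0.988 in edgeR), so neither a 2-fold fall nor a 2-fold rise lay outside the interval. Its sign depended on single libraries, at 0.40 without TRH replicate 3 and -0.29 without control replicate 2. The spread between libraries of a group, as edgeR's biological coefficient of variation, was 40.9% for Itpr2, above that of 96.7% of genes tested and above the 22.1% fitted for genes of its abundance.

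In every library Itpr1 was the more abundant IP3 receptor transcript. Its TPM was 7.71 times that of Itpr2 in control replicate 1 and 17.4 times in control replicate 2, the extremes of the 6 libraries. The log2 TPM ratio was 3.45 ± 0.604 in the control group and 3.37 ± 0.478 in the TRH group (SD, n = 3 each), and the difference was within the spread (two-sided exact permutation test, p = 0.8, adjusted p = 1 over 6 measures, where 0.1 is the smallest p that 3 against 3 can give).

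The PKC genes fall into the conventional enzymes alpha (Prkca) and beta (Prkcb), which need calcium and diacylglycerol, and the delta (Prkcd) and epsilon (Prkce) enzymes, which respond to diacylglycerol without calcium. All 4 had negative fitted fold changes, and 0 of the 4 passed the test. Prkce, the most abundant, had 56.1, 36.2 and 54.1 CPM in control replicates 1 to 3 and 43.5, 42.4 and 26.1 CPM in TRH replicates 1 to 3. Control replicate 2 lay below TRH replicates 1 and 2, and TRH replicate 3 was the lowest of all. Its fitted log2 fold change was -0.38 (95% interval -0.91 to 0.15, SE 0.23, adjusted p = 0.627 in edgeR).

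Prkca stood at 26.4, 15.9 and 22.1 CPM in control replicates 1 to 3, and at 19.1, 17.3 and 10.9 CPM in TRH replicates 1 to 3. It showed the same arrangement of libraries, with control replicate 2 below TRH replicates 1 and 2. Its log2 fold change was -0.45 (95% interval -1.01 to 0.12, SE 0.25, adjusted p = 0.610 in edgeR), the most negative value of the set. Prkcb had 11.1, 7.85 and 9.18 CPM in control replicates 1 to 3, and 7.98, 7.62 and 6.14 CPM in TRH replicates 1 to 3. Control replicate 2 lay between TRH replicates 1 and 2, so the groups overlapped by 1 library. Its log2 fold change was -0.37 (95% interval -0.78 to 0.04, SE 0.18), and its unadjusted p of 0.0706 was the smallest of the 9 genes (edgeR adjusted p = 0.571).

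Prkcd differed least among the PKC genes. It had 22.6, 16.6 and 20.9 CPM in control replicates 1 to 3 and 20.2, 17.2 and 15.4 CPM in TRH replicates 1 to 3. TRH replicate 3 and control replicate 2 were again the lowest libraries. Here the log2 fold change came to -0.19 (95% interval -0.55 to 0.18, SE 0.16, adjusted p = 0.693 in edgeR). With single libraries left out it ran from -0.30 without control replicate 2 to -0.0913 without control replicate 1, and it was -0.10 without TRH replicate 3.

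For Gnaq and all 4 PKC genes, control replicate 2 was the only control inside the range of the TRH libraries. Without it, the log2 fold changes were -0.62 for Prkca (unadjusted p = 0.0286), -0.48 for Prkcb (unadjusted p = 0.0317) and -0.56 for Prkce (unadjusted p = 0.0293), each with an edgeR adjusted p of 0.377. That of Prkcd was -0.30 (unadjusted p = 0.0889, edgeR adjusted p = 0.429). That fit gave 4 of the 9 genes, Gnaq included, an unadjusted p under 0.05, against 0 with all libraries. Over all genes tested it gave 1786, against 1263 (8.99%) with all libraries, and its own share was not computed. Control replicate 2 was the lowest control in these 4 genes, so more negative fold changes were built into leaving it out. Without TRH replicate 1 the log2 fold changes were -0.59 for Prkca, -0.43 for Prkcb and -0.49 for Prkce, without TRH replicate 2 they were -0.52, -0.41 and -0.49, and without control replicate 3 they were -0.41, -0.37 and -0.29. For Prkca, Prkcb and Prkce, the single libraries whose omission brought the values nearest to 0 were TRH replicate 3 and control replicate 1. Without TRH replicate 3 the log2 fold changes were -0.24 for Prkca, -0.27 for Prkcb and -0.19 for Prkce, and without control replicate 1 they were -0.27, -0.23 and -0.27. Over 16 alternative settings the edgeR, DESeq2 or limma adjusted p of the 9 genes ran from 0.345 to 0.996.

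The make-up of the PKC transcripts was similar in all libraries. The summed TPM of the 4 genes was 82.4, 50.3 and 75.1 in control replicates 1 to 3, and 61.8, 58.5 and 35.5 in TRH replicates 1 to 3. Prkce made up 55.3% to 62.2% of this sum, Prkcd 16.97% to 23.1%, Prkca 11.7% to 14.3% and Prkcb 7.99% to 9.85%. The share of Prkcd was 17.7 ± 1.15% in the control group and 20.04 ± 2.78% in the TRH group (SD, n = 3 each), with 23.1% in TRH replicate 3 and 19.4% or less in the other TRH libraries. That was the largest difference among the 4 shares, at 2.38 percentage points, and it fell to 0.857 without TRH replicate 3 (with all libraries, two-sided exact permutation test, p = 0.2, adjusted p = 0.9 over 6 measures). The shares of Prkce (58.6 ± 3.05% with TRH and 60.1 ± 1.91% in controls) and of Prkca (12.52 ± 0.730% and 13.4 ± 0.782%) differed by less than that, with exact permutation p of 0.5 and 0.3 (n = 3 each). Other PKC genes were not analysed here, so these are shares of 4 genes and not of all PKC.

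**Figure D3:**
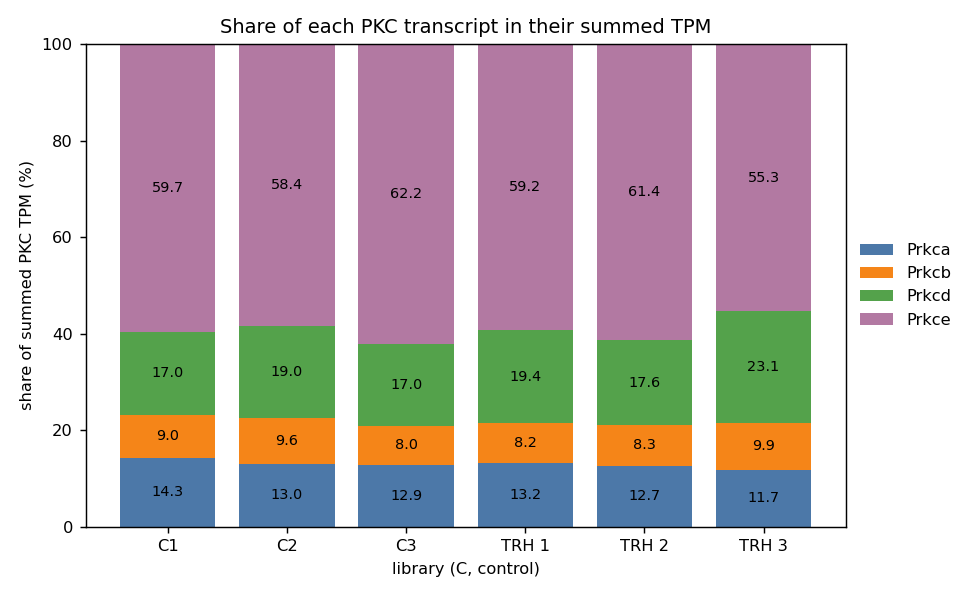
Share of Prkca, Prkcb, Prkcd and Prkce (percent of their summed TPM, vertical axis) in each of the 3 control (C) and 3 TRH libraries, with the share printed in each segment. Prkce takes over 55% in every library, and the Prkcd segment is largest in TRH replicate 3, at 23.1%.

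Atp2a2 encodes SERCA2, the pump that moves calcium back into the endoplasmic reticulum. It had 443, 403 and 468 CPM in control replicates 1 to 3 and 452, 454 and 375 CPM in TRH replicates 1 to 3. TRH replicate 3 was again the lowest library, and TRH replicates 1 and 2 lay within the control range. With a log2 fold change of -0.04 (95% interval -0.28 to 0.21, SE 0.11, adjusted p = 0.916 in edgeR), Atp2a2 had the narrowest interval of the set, which lay within 1.5-fold in both directions. Its sign turned with length offsets (0.13), without TRH replicate 3 (0.04), without control replicate 3 (0.03) and without both TRH replicate 3 and control replicate 1 (0.06). The biological coefficient of variation of Atp2a2 was 11.1%, the lowest of the 9 genes, beside a median of 15.0% over all genes tested.

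Pump and release channel transcripts were set side by side as the TPM of Atp2a2 over the summed TPM of Itpr1 and Itpr2. This ratio ran from 8.22 in TRH replicate 1 to 13.2 in TRH replicate 3. On the log2 scale it was 3.22 ± 0.146 in the control group and 3.29 ± 0.376 in the TRH group (SD, n = 3 each; two-sided exact permutation test, p = 0.9, adjusted p = 1 over 6 measures). Without TRH replicate 3 the difference turned from 0.07 to -0.15.

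The libraries that were high or low recurred from gene to gene. TRH replicate 3 was the lowest library for 9 of the 9 tested genes, a place it took in 26.9% of all genes tested, and control replicate 1 was the highest for 6, against 31.2% of all genes. Over all genes these libraries were extreme in both directions, with TRH replicate 3 the highest for 26.5% and control replicate 1 the lowest for 28.6%. With DESeq2 size factors TRH replicate 3 was lowest for 8 of the 9, with TPM for 9. The deviation of each gene from its own mean over the 6 libraries, on the log2 CPM scale, had a median over the 9 genes of 0.42, -0.16 and 0.30 in control replicates 1 to 3, and of 0.07, 0.02 and -0.43 in TRH replicates 1 to 3. Within each treatment these medians spanned more than the fitted change of any single gene, of which that of Prkca (-0.45, SE 0.25) was the farthest from 0. A span over single libraries and a difference between group means are unlike measures, so this does not size the error of the fold changes.

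Gene length moved with this pattern. The genes tested were divided into 5 groups of equal size by length, and the longest group, from 3866 bases, had a median deviation of 0.18 in control replicate 1, and of -0.22 in TRH replicate 3, which was the lowest library for 57.3% of its genes. Of the 9 genes, 3 lay in the longest group (Itpr1, Itpr2 and Atp2a2) and 3 in the next (Plcb3, Prkca and Prkcd). The median length of all 10 was 3801 bases, against 2198.5 bases for all genes tested. With each library's trend in length taken out, TRH replicate 3 was lowest for 6 of the 9 genes (Gnaq, Itpr2 and the 4 PKC genes), control replicate 1 for 2 (Itpr1 and Atp2a2) and control replicate 2 for Plcb3. The median deviation of the 9 genes was then 0.26 for control replicate 1 and -0.34 for TRH replicate 3. Shares of all genes on this scale were not computed, so the count of 6 has no background beside it. RNA integrity per library is not stated in the sources used here, and its part was not tested.

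**Figure D4:**
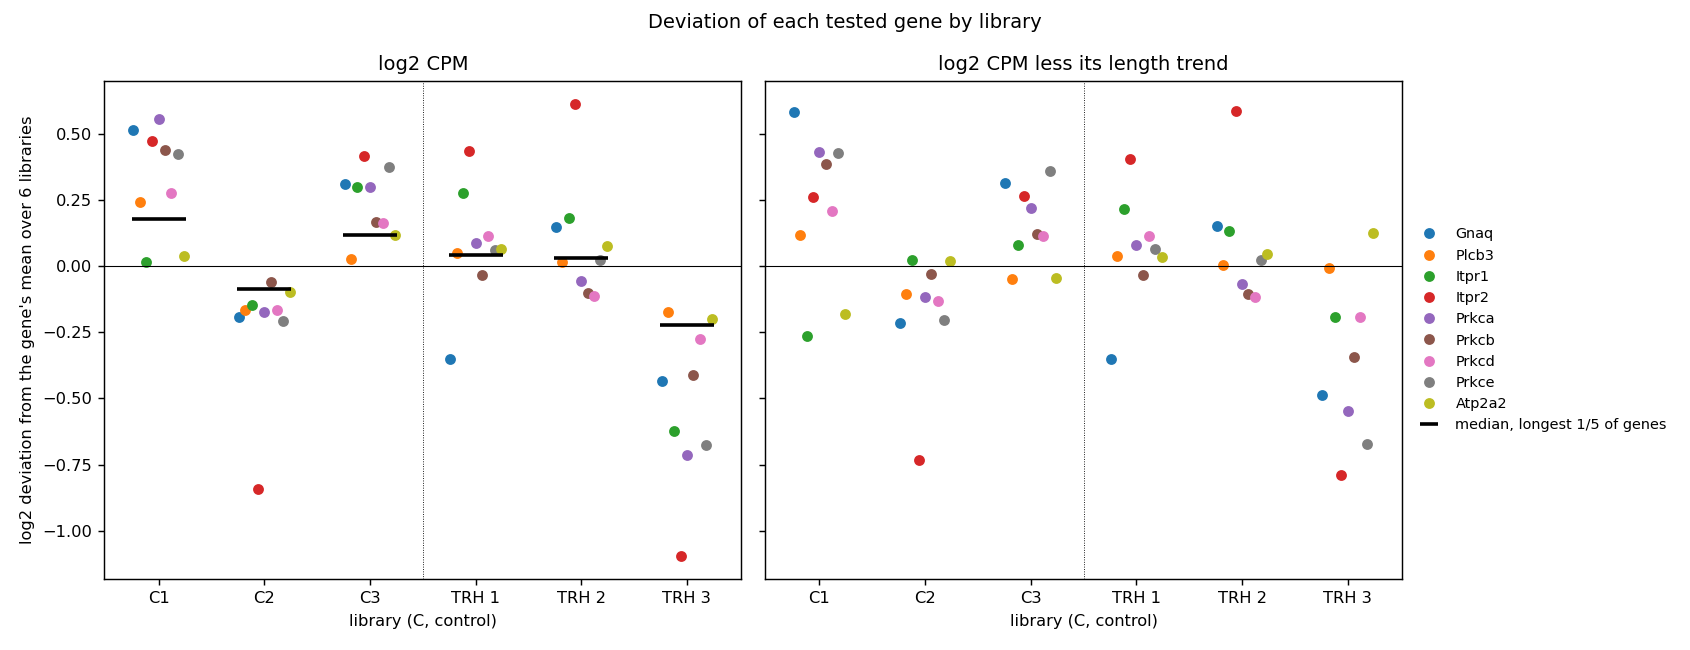
Log2 deviation of each of the 9 tested genes from its mean over the 6 libraries (vertical axis) in control (C) and TRH libraries, as log2 CPM (left) and with each library's trend in gene length removed (right); black lines are medians of the longest of the 5 length groups. All 9 points of TRH replicate 3 lie below 0 on the left, and Plcb3 and Atp2a2 are near or above 0 there on the right.

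Within the set, Prkca and Prkce had the most alike patterns over the 6 libraries, with Pearson's r of 0.984 and Spearman's rho of 1 on log2 CPM. Itpr1 was most like Atp2a2 (r = 0.967, rho = 0.943) and least like Gnaq (r = 0.493, rho = 0.429). Over the 36 pairs the median r was 0.832. These are descriptions over 6 libraries that share depth and scaling, and no value without single libraries was computed. The trend in gene length was not taken out of these values. Itpr1 and Atp2a2 are both in the longest group, and Gnaq is the shortest gene of the set.

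The libraries held from 43504159 to 52134239 counts, and the 10 genes together took 0.0501% of counts in TRH replicate 3 and 0.0584% to 0.0717% in the others. With 3 libraries per group and the spread between them, a 2-fold change in either direction lay outside the 95% interval for 7 of the 9 genes, all but Itpr2 and Prkca, beside 82.0% of all genes tested. A 1.5-fold change lay outside it for Plcb3, Atp2a2 and Prkcd, and the share of all genes at that limit was not computed. No adjustment for the number of genes was made to these intervals. A change in level that was over before the cells were collected, or one in protein amount or activity, was not measured.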

How the data were processed

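The authors deposited raw counts per Ensembl gene for 6 libraries, and a second table with the same counts (equal in 100% of cells), a gene length, FPKM (not used here) and TPM. HISAT2 and bedtools are named, per the submitters' processing notes. The genome build, annotation, strand setting and counting rule are not stated in the sources used here, so reads shared with near-identical or overlapping genes may be split either way. TPM was used as the authors deposited it.

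Counts were tested with edgeR 4.0.16 (R 4.3.3) by the quasi-likelihood test, with TMM scaling, filterByExpr, no replicate block and Benjamini-Hochberg adjustment over 14050 genes at 0.05. Alternatives used DESeq2 1.42.0 and limma 3.58.1, other filters and scalings, log2(TPM + 1) and log2(TPM + 0.1), loess length offsets (span 0.5) and fewer libraries. Scripts were tested on simulated data. All 10 genes were named, whatever their p. The members and lists were chosen with earlier results of these data known. The planned Plcb1 to Plcb3 log2 ratio was dropped, as Plcb1 was at 0, which left 6 family measures. A list of 46 other pathway symbols and the pituitary cell markers were not analysed here, because 0 of 47357 rows of the RefSeq table (GRCr8) hold an Ensembl identifier. Without such markers, the labelled cell line was not checked.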

Additional observations from a re-analysis of the deposited data

How the results depend on the processing

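No gene of the set passed adjustment in any of the 16 alternatives, whose adjusted p ran from 0.345 to 0.996. Over all genes, 0 were called in edgeR, 106 by DESeq2's Wald test, 1 without both control replicate 1 and TRH replicate 3, and, leaving out single libraries, between 0 and 1 (the latter without TRH replicate 3). Of 144 alternative fold changes of the 9 genes, 18 turned sign, all in Plcb3, Itpr1, Itpr2 and Atp2a2, while those of Gnaq and the PKC genes kept their sign and shrank to between -0.16 and -0.0039 without control replicate 1 and TRH replicate 3. Those libraries stood farthest apart by median over the same genes, so an upward shift of the set was built into leaving them out. With length offsets the log2 fold changes were 0.0232 for Plcb3, 0.11 for Itpr1 and 0.13 for Atp2a2, and without control replicate 1 and TRH replicate 3 they were 0.0971, 0.136 and 0.0570. Itpr2 turned to -0.0110 in limma voom, -0.0240 on log2(TPM + 1) and -0.0783 on log2(TPM + 0.1). With single libraries left out, the ranges were -0.171 to 0.0321 for Plcb3, -0.221 to 0.155 for Itpr1, -0.286 to 0.401 for Itpr2 and -0.0941 to 0.0415 for Atp2a2. The cause was not tested.

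Of 42 alternative values of the family measures that could turn, 10 turned sign. The Prkcb share difference of -0.0395 percentage points became 0.0460 with length offsets and -0.56 to 0.34 with single libraries left out. In the same fits the Prkce share difference ran from -2.84 to 0.17, the log2 ratio of Itpr1 to Itpr2 from -0.34 to 0.25 and that of Atp2a2 to both receptors from -0.15 to 0.19.

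A replicate block in edgeR gave 0 called genes, none of the set among them, and turned the log2 fold change of Itpr2 to -0.0223; no other fold change of the set turned. The deviations of equal-numbered libraries correlated at 0.30, -0.26 and -0.12, so the numbers were not taken as pairs. Pairing by number cannot change the family differences, and 3 pairs cannot give an exact p under 0.25, the value for the Prkca share.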
